A study of Mus musculus with 12 samples.

Results

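Mitochondrial ribosomal proteins were examined through the RNA of 77 genes in bone marrow-derived dendritic cells (DCs) of the mouse. The genes were taken by symbol: of 84 rows of the count table whose symbol starts with Mrpl or Mrps and a digit, 6 pseudogene rows ending in -ps were left out, and of the other 78 all but Mrpl53 had at least 10 counts in every library. By their names 48 of the 77 genes encode proteins of the large subunit (Mrpl) and 29 encode proteins of the small subunit (Mrps). All 77 passed the filter on low counts, which kept 18228 of 55471 genes. No member was close to the count limit: the nearest was Mrps12, with 61 counts in its poorest library, while Mrpl53, just outside, had 2 counts over all libraries.

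The cells came from the bone marrow of adult female C57BL/6 mice, were grown with GM-CSF (granulocyte-macrophage colony-stimulating factor), and were transduced with a retrovirus that carries a short hairpin RNA (shRNA) and a human CD8 reporter, on which they were sorted. The hairpin was directed against firefly luciferase (shControl) or against Ppargc1b (shPpargc1b), which encodes PGC-1β, a co-activator of transcription. Cells of each kind were left unstimulated or were treated with the antiviral cytokine interferon-β (IFN-β) for 6 h, which gives 4 groups of 3 libraries. All groups thus share the viral transduction and the sort, the knockdown in these libraries rests on a single hairpin, and the labels do not say whether the libraries of a group came from separate mice or cultures, so p-values measure the spread between these libraries, which may be technical.

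Mitochondrial ribosomes translate the mRNAs of the mitochondrial genome, which encode core subunits of the respiratory chain and ATP synthase. Their RNA is made inside the organelle, whereas their proteins are encoded in the nucleus, translated in the cytosol and imported. Nuclear respiratory factors, oestrogen-related receptors and ETS-family factors are known regulators of nuclear genes of mitochondrial function, and PGC-1 co-activators work through several of them. Whether a fall in PGC-1β, or IFN-β, was accompanied by a change in this set of genes, and whether it was the same in both subunits, is the question these comparisons address.

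The targeted gene was lower in every library of the knockdown groups than in the matching controls. Ppargc1b had counts-per-million (CPM) values of 33.4, 33.3 and 36.7 in unstimulated shControl cells and 18.6, 19.3 and 20.3 CPM in unstimulated shPpargc1b cells. With IFN-β it had 31.4, 23.6 and 28.4 CPM in shControl and 19.6, 15.5 and 20.9 CPM in shPpargc1b cells. The groups did not overlap in either state, and the log2 fold change with its standard error, given in this form throughout, was -0.83 ± 0.10 with adjusted p = 3.25e-05 without and -0.57 ± 0.11 with adjusted p = 9.45e-04 with IFN-β (edgeR quasi-likelihood test, Benjamini-Hochberg adjustment over all 18228 genes, as for every adjusted p of a gene below). The smallest p an exact two-sided permutation test allows with 3 libraries against 3 is 0.1, and it was 0.1 in both states.

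Library totals ran from 49919648 to 77726101 counts. CPM values were scaled with the trimmed mean of M-values (TMM), with factors of 1.07 to 1.09 without IFN-β and of 0.914 to 0.941 with it, so values set across that treatment lean on this scaling. The summed CPM of all 8 dendritic cell markers (Itgax, Cd74 and others) was 4404 to 6625, and that of 8 macrophage markers was 2032 to 2675. Neutrophil markers summed to 31.3 to 126 CPM, mast cell or basophil markers to 2.29 to 12.3, lymphocyte markers to at most 0.651 and erythroid markers to at most 0.147. In shPpargc1b cells 5 of 8 dendritic markers were higher in each state. Of 8 macrophage markers 3 were lower and 1 higher in each state, and their sum was lower (2032 to 2063 against 2177 to 2253 CPM unstimulated, 2298 to 2354 against 2544 to 2675 with IFN-β). The neutrophil sum was 73.3 to 126 CPM in unstimulated shPpargc1b against 35.6 to 73.9 in shControl cells, and 66.7 to 121 against 31.3 to 76.0 with IFN-β. The summed CPM of 6 proliferation genes was 234 to 408 over all libraries, with overlap between the groups. The part of these differences in the results below was not tested. In bulk RNA, fewer cells of a type and less RNA per cell cannot be told apart.

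Taken per length of exon (RPKM, the CPM divided by the exon length in kilobases, averaged over all 12 libraries), the 77 genes spanned a wide range of levels. Mrps21, which encodes a small subunit protein of bacterial ancestry, was the highest at 33.3 RPKM, followed by the large subunit genes Mrpl34 at 23.1 and Mrpl54 at 18.3 RPKM. The lowest were Mrpl23 at 0.663, Mrps5 at 1.03 and Mrps6 at 1.27 RPKM. The exon length joins all annotated exons of a gene, for example 4883 bases for Mrpl23 and 739 for Mrps21. This order thus depends on the annotation as well as on the counts. Exons of 32 of the 77 genes share bases with exons of another gene, mostly on the opposite strand, and for Mrps25 (69.8% of its exon bases) and Mrps34 (63.4%) this holds for most of the exon length. The strand setting of the counting is not given in the sources used here, so whether reads of opposite-strand partners were kept apart is unknown. Counts for the 45 genes without such an overlap are given with each comparison.

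Together the 77 genes took between 0.0935% and 0.125% of each library. The summed level of these genes was 1103, 1097 and 1152 CPM in shControl and 1056, 1127 and 1120.0 CPM in shPpargc1b libraries without IFN-β, and 1015, 1025 and 1024 and 1042, 1011 and 1020.3 CPM in the same order with it. All 6 IFN-β-treated libraries lay below all 6 unstimulated ones, whereas the shControl and shPpargc1b libraries overlapped within each state. A sum over the genes gets no p-value, because the set was chosen with results of these data known.

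With TMM scaling the lower sum with IFN-β lay mostly in the small subunit. The 29 small subunit genes summed to 366, 369 and 384 CPM in shControl and 349, 375 and 373 CPM in shPpargc1b libraries without IFN-β. After IFN-β the values were 307, 309 and 305 CPM in shControl and 317, 306 and 308 CPM in shPpargc1b libraries, all below the lowest unstimulated value. The small subunit sum was thus lower in every treated library. The 48 large subunit genes had means of 744 ± 21.2, 735 ± 24.5, 714 ± 5.33 and 714 ± 10.3 CPM in the same order of groups (SD, n = 3 each), and here the treated and untreated ranges overlapped in shPpargc1b cells. The ratio of large to small subunit CPM, which does not depend on library scaling, was 2.01, 1.97 and 1.998 in unstimulated shControl and 2.03, 2.01 and 2.003 in unstimulated shPpargc1b libraries. It was 2.31, 2.32 and 2.35 in IFN-β-treated shControl and 2.29, 2.30 and 2.32 in IFN-β-treated shPpargc1b libraries. With library totals alone both subunits were lower with IFN-β, the large subunit sum going from 807 ± 25.7 to 656 ± 1.47 CPM and the small from 405 ± 12.2 to 282 ± 2.58 CPM in shControl cells, and from 789.9 ± 25.8 to 667 ± 14.96 and 393 ± 15.5 to 289 ± 7.51 CPM in shPpargc1b cells (SD, n = 3), so that in CPM most of the fall then lay in the large subunit. Only the relative change was independent of scaling. For the ratio, treated and untreated libraries did not overlap under either hairpin, and the shift was several times the spread between libraries, while the hairpins differed by far less in each state. The ratio uses CPM, so it compares libraries and not the abundance of the subunits themselves.

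**Figure D1:**
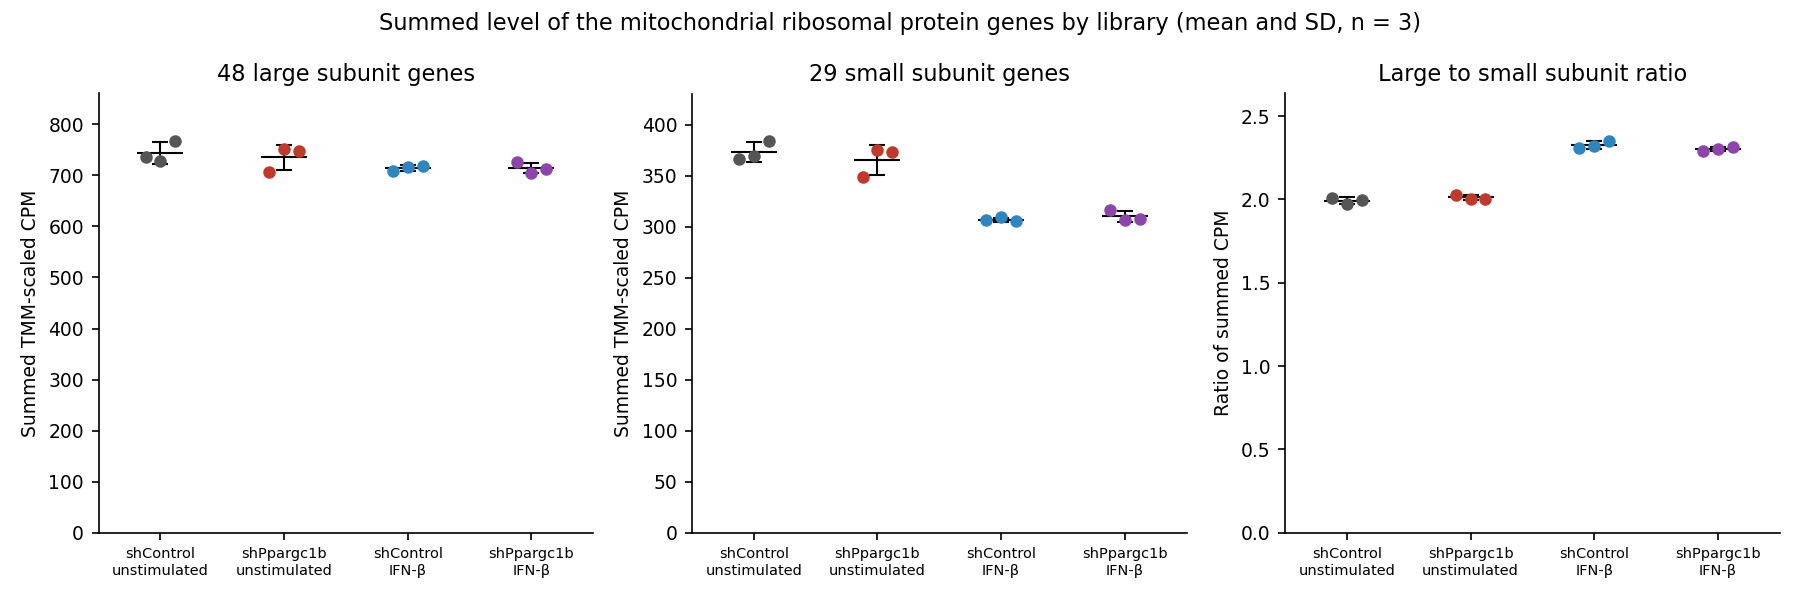
Summed TMM-scaled CPM of the 48 large subunit genes (left) and 29 small subunit genes (middle) and their ratio (right, no unit) in the 4 groups, with libraries as points and the mean and SD over 3 libraries as bars. The ratio lies between 1.97 and 2.03 in the 6 unstimulated and between 2.29 and 2.35 in the 6 treated libraries.

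The gap between subunits remained when each gene had equal weight: the mean log2 CPM of the large subunit genes exceeded that of the small subunit genes by 0.413 ± 0.00975 in unstimulated and 0.563 ± 0.0200 in treated shControl cells, and by 0.401 ± 0.0307 and 0.545 ± 0.00673 in shPpargc1b cells (SD, n = 3). A few names mislead about position in the ribosome. Mrps30 and Mrps18a proteins are known to sit in the large subunit, and Mrps36 protein is known as a part of the α-ketoglutarate dehydrogenase complex. With these placed accordingly, 50 genes against 26, the ratio was 2.33 ± 0.0279 and 2.77 ± 0.0300 in shControl, and 2.37 ± 0.0340 and 2.73 ± 0.0204 in shPpargc1b cells, without and with IFN-β. Treated and untreated libraries also did not overlap without Mrpl39, the large subunit gene with the largest rise (an alternative chosen after seeing the data): the 6 unstimulated libraries then had ratios of 1.91 to 1.95 and the 6 treated libraries 2.15 to 2.20.

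IFN-β in shControl cells lowered more of these genes than it raised. Of 77 genes, 41 were lower and 11 higher past the threshold of adjusted p under 0.05, against a background of 24.6% lower and 23.7% higher among all genes tested. The median log2 fold change was -0.27, against -0.03 over all genes. In the small subunit 17 of 29 genes were lower and 1 was higher, with a median of -0.27. In the large subunit 24 of 48 were lower and 10 higher, with a median of -0.19. The 3 libraries of each group did not overlap for 47 genes that were lower (background 29.4%) and 12 that were higher (background 27.2%). Among the 45 genes without exon overlap, 26 were lower and 6 higher.

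Scaling by library totals alone, with no TMM factors, gave 64 genes lower and 5 higher in shControl cells and moved the median of all genes tested from -0.03 to -0.27, and that of the 77 genes from -0.27 to -0.51. The share of higher genes among those called fell from 21.2% to 7.25%. Relative to the median of all genes, the median of the set was lower under both scalings.

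In shPpargc1b cells the same treatment, measured in other libraries, gave 32 genes lower and 7 higher, with backgrounds of 21.2% lower and 21.4% higher and a median of -0.17 against -0.02 over all genes. Library totals alone gave 58 lower and 5 higher, 7.94% of the called genes being higher against 17.9% with TMM. Of the 41 genes lower in shControl cells, 31 were also lower in shPpargc1b cells, and of the 11 that were higher 7 were also higher. No gene passed the threshold in opposite directions. The small subunit counts were 15 lower and 1 higher with a median of -0.25, and the large subunit counts were 17 lower and 6 higher with a median of -0.16. Libraries did not overlap for 39 genes that were lower (background 25.4%) and 8 that were higher (background 24.7%). Among the 45 genes without exon overlap, 21 were lower and 4 higher.

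**Figure D2:**
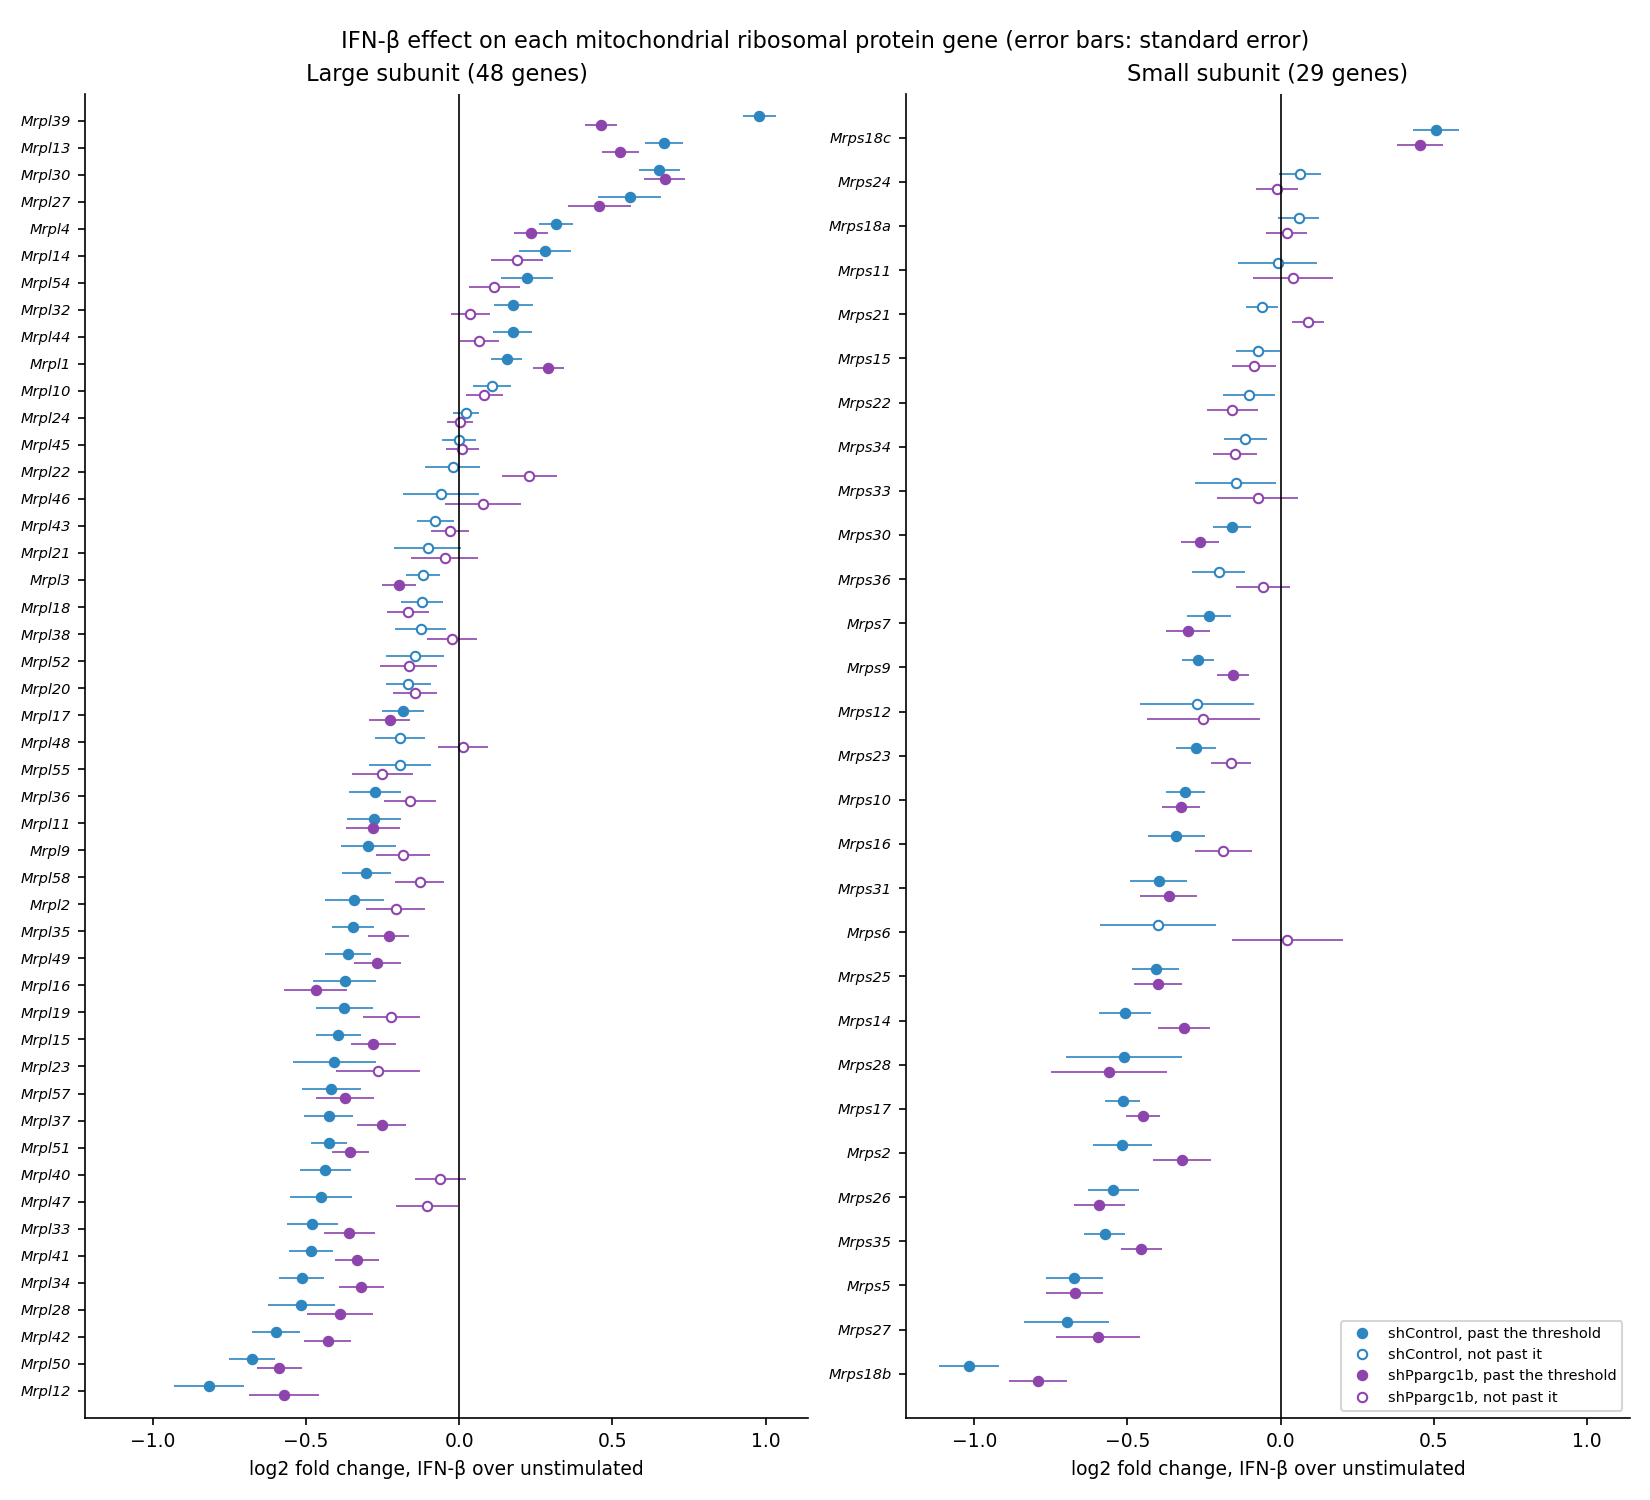
Log2 fold change of IFN-β-treated over unstimulated cells (x axis) for each of the 48 large and 29 small subunit genes, sorted by the value in shControl cells, as edgeR estimates with their standard errors over 3 libraries against 3, filled where adjusted p is under 0.05. In the small subunit panel Mrps18c is the single gene past the threshold on the right of 0 under both hairpins.

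Among the genes that fell, Mrps18b stood lowest. Its product is one of the family of mitochondrial S18 proteins, homologues of a bacterial small subunit protein. Mrps18b (ENSMUSG00000024436, chr17:35910379-35916389 on GRCm38) had 11.5, 13.1 and 11.8 CPM in unstimulated and 6.20, 5.67 and 6.18 CPM in treated shControl cells. In shPpargc1b cells it had 13.4, 17.1 and 14.9 CPM before and 9.38, 8.81 and 8.07 CPM after treatment. The log2 fold change of IFN-β was -1.02 ± 0.097 with adjusted p = 3.40e-07 in shControl and -0.79 ± 0.094 with adjusted p = 5.17e-06 in shPpargc1b cells. Each treated library lay below each untreated one of the same hairpin. An opposite-strand gene shares 30.5% of the exon bases of Mrps18b.

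Mrpl12 encodes the stalk protein of the large subunit, which has also been described as a partner of the mitochondrial RNA polymerase. Mrpl12 (ENSMUSG00000039640, chr11:120484613-120489065) had 14.02, 15.3 and 17.8 CPM in unstimulated and 9.01, 8.53 and 9.21 CPM in treated shControl cells. In shPpargc1b cells the values were 11.3, 15.6 and 15.1 CPM and 10.1, 9.15 and 9.06 CPM. The groups did not overlap, with a log2 fold change of -0.82 ± 0.11 with adjusted p = 2.13e-05 in shControl and -0.57 ± 0.11 with adjusted p = 7.23e-04 in shPpargc1b cells. An opposite-strand gene shares 13.1% of the exon bases of Mrpl12. Mrpl10, whose protein anchors that stalk, did not pass the threshold. It had a mean of 18.1 ± 0.754 CPM before and 19.5 ± 0.486 CPM after IFN-β in shControl cells (SD, n = 3, adjusted p = 0.17), and its 3 treated libraries all lay above the untreated ones, but the sign of the difference turned with library-total scaling (-0.13 on the log2 scale). The RNA of the stalk protein thus fell while that of its anchor did not pass, and the difference between them was not tested.

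Other members with the largest falls came from both subunits. Mrps27 encodes a pentatricopeptide-repeat protein of the small subunit and had 7.10, 6.34 and 8.78 CPM before and 5.40, 3.89 and 4.43 CPM after IFN-β in shControl cells, a log2 fold change of -0.70 ± 0.14 with adjusted p = 6.27e-04. An opposite-strand gene shares 24.2% of the exon bases of Mrps27. Mrpl50, which encodes a large subunit protein without a bacterial counterpart, went from 14.5, 14.3 and 15.6 CPM to 9.16, 9.21 and 9.37 CPM, a log2 fold change of -0.68 ± 0.075 with adjusted p = 1.89e-06. These falls were seen without overlap of the libraries, also in shPpargc1b cells, where the log2 fold changes were -0.60 ± 0.14 with adjusted p = 0.0023 for Mrps27 and -0.59 ± 0.075 with adjusted p = 1.12e-05 for Mrpl50. Mrps5, the gene of the mitochondrial homologue of bacterial S5, had 7.31, 8.65 and 8.82 CPM before and 5.13, 4.92 and 5.52 CPM after IFN-β in shPpargc1b cells. Its log2 fold change there was -0.67 ± 0.093 with adjusted p = 2.56e-05, beside -0.67 ± 0.093 with adjusted p = 1.94e-05 in shControl cells. Mrps26, another small subunit gene, had 9.09, 9.44 and 9.002 CPM and 6.47, 5.76 and 6.04 CPM in shPpargc1b cells, a log2 fold change of -0.59 ± 0.084 with adjusted p = 3.22e-05.

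A smaller group of large subunit genes rose, led by Mrpl39. Its protein is a mitochondria-specific component of the large subunit related to threonyl-tRNA synthetase. Mrpl39 (ENSMUSG00000022889, chr16:84717576-84735742) had 24.03, 24.03 and 25.04 CPM in unstimulated and 48.99, 48.996 and 46.2 CPM in treated shControl cells. In shPpargc1b cells it had 25.8, 28.8 and 29.1 CPM and 37.96, 39.4 and 38.1 CPM. The level in shPpargc1b cells was thus above that of shControl cells without IFN-β and below it with IFN-β, with no overlap in either state. The log2 fold change of IFN-β was 0.98 ± 0.053 with adjusted p = 3.38e-10 in shControl and 0.46 ± 0.052 with adjusted p = 3.15e-06 in shPpargc1b cells, and that of knockdown was 0.20 ± 0.053 with adjusted p = 0.013 without and -0.32 ± 0.052 with adjusted p = 3.05e-04 with IFN-β.

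Mrpl39 was the only one of the 77 genes past the threshold in the interaction, which tests whether the effect of IFN-β differs between the hairpins. The interaction was -0.52 ± 0.074 with adjusted p = 0.0062 on the log2 scale. The background of that test was 0.669% of all genes lower and 0.0603% higher, so 1 of 77 lower and 0 of 77 higher is near the background. At an unadjusted p under 0.05 there were 3 of 77 genes in either direction, beside 1909 of 18228 over all genes, and DESeq2 and limma-voom also gave 1 lower and 0 higher. Of the 45 genes without exon overlap, 1 was lower, which was Mrpl39. The median interaction of the set was 0.06, beside -0.00079 over all genes.

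Mrpl13, Mrpl30 and Mrpl27, which encode the mitochondrial homologues of bacterial L13, L30 and L27, followed. Mrpl13 went from 19.8, 18.4 and 20.8 CPM to 29.1, 32.4 and 32.2 CPM with IFN-β in shControl cells, a log2 fold change of 0.67 ± 0.061 with adjusted p = 1.90e-07. Mrpl30 went from 20.5, 18.7 and 19.6 CPM to 29.4, 31.5 and 31.4 CPM, a log2 fold change of 0.65 ± 0.066 with adjusted p = 6.80e-07. Mrpl27 went from 8.49, 6.50 and 7.16 CPM to 10.6, 11.4 and 10.6 CPM, a log2 fold change of 0.56 ± 0.10 with adjusted p = 3.08e-04. None of these groups overlapped, and each gene was also higher in treated shPpargc1b cells, by 0.53 ± 0.060, 0.67 ± 0.066 and 0.46 ± 0.10 on the log2 scale, with adjusted p of 3.47e-06, 6.83e-07 and 0.0019 in that order. Mrpl13, Mrpl30, Mrpl27 and Mrpl39 stayed past the threshold under every alternative setting tried, library totals included.

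The S18 family shows how far single members could part. Mrps18c (ENSMUSG00000016833, chr5:100798627-100804471) was the only small subunit gene that rose past the threshold, from 10.6, 9.65 and 9.27 CPM to 13.4, 15.1 and 13.5 CPM in shControl cells. In shPpargc1b cells it went from 9.62, 9.41 and 10.3 CPM to 13.5, 13.02 and 13.7 CPM. Its log2 fold change was 0.51 ± 0.075 with adjusted p = 4.04e-05 in shControl and 0.45 ± 0.075 with adjusted p = 1.47e-04 in shPpargc1b cells, the opposite direction from Mrps18b. The same-strand gene Gm43511 shares 23.2% of the exon bases of Mrps18c. Mrps18a (ENSMUSG00000023967, chr17:46110986-46128910), the family member whose protein belongs to the large subunit, had 12.9 ± 0.765 CPM before and 13.5 ± 0.534 CPM after IFN-β in shControl cells (SD, n = 3), and its libraries overlapped (adjusted p = 0.51). With library totals alone Mrps18a was lower, by 0.18 on the log2 scale under each hairpin and past the threshold (adjusted p = 0.037 in each).

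**Figure D3:**
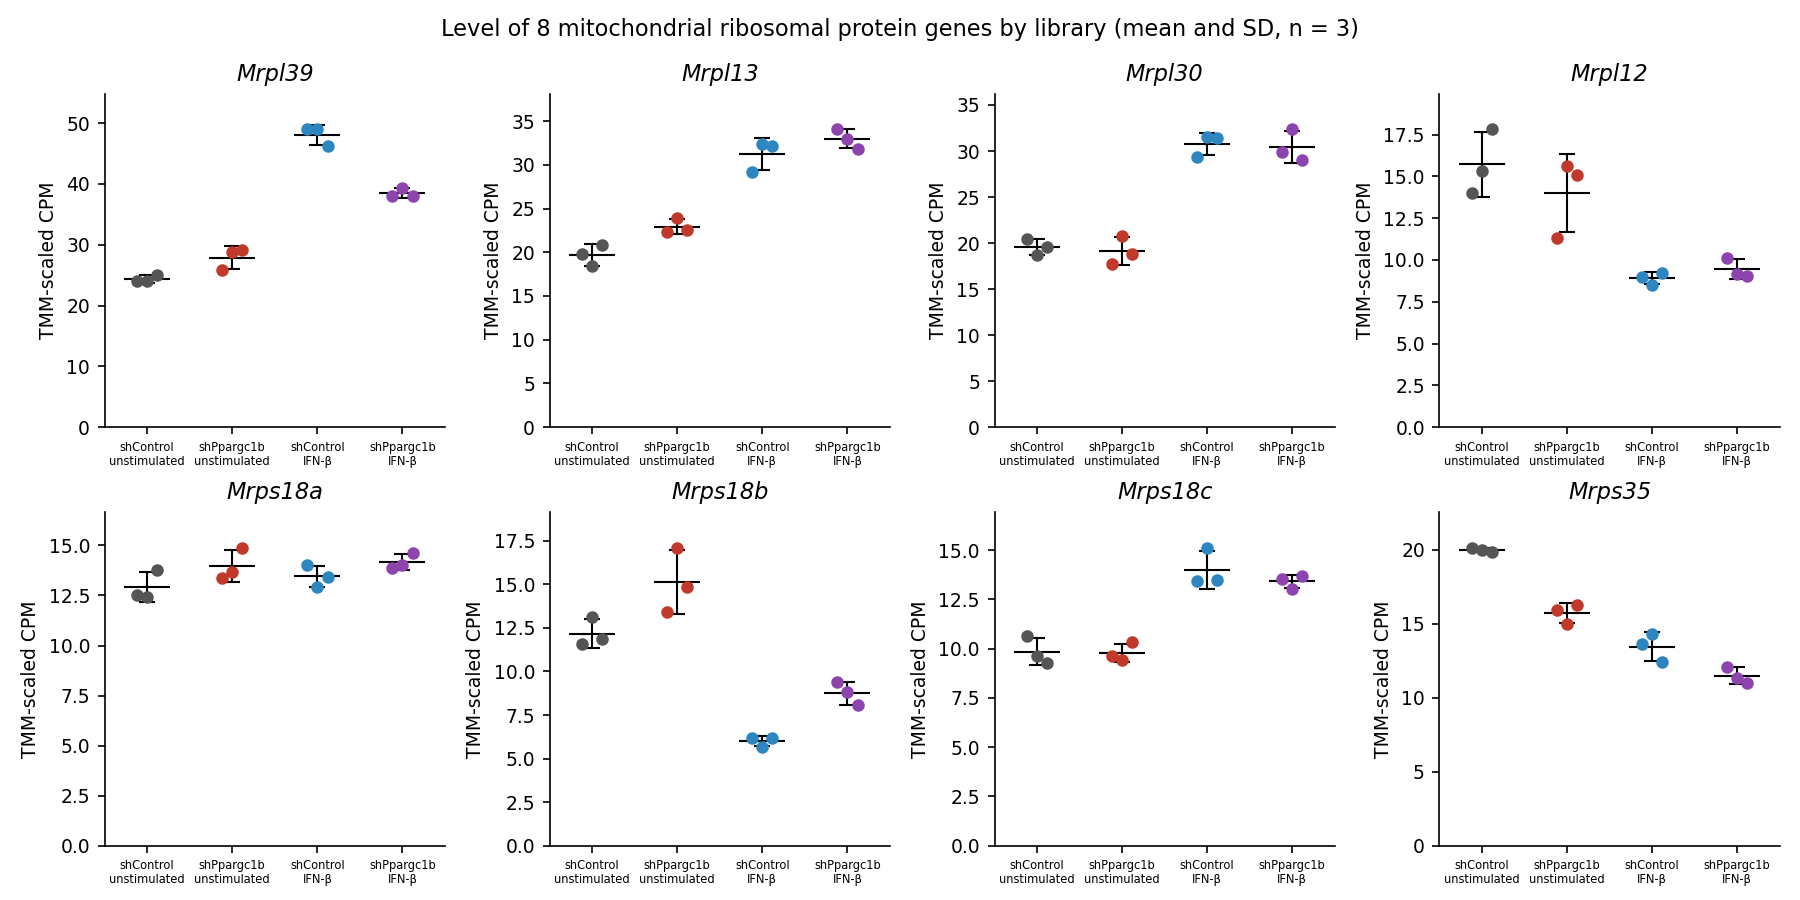
TMM-scaled CPM of 8 genes in the 4 groups, each point a library, with the mean and SD over 3 libraries as bars and axes from 0. Mrpl39, Mrpl13, Mrpl30 and Mrps18c are higher in treated cells, Mrpl12, Mrps18b and Mrps35 are lower, and Mrps18a overlaps between treated and untreated shControl cells.

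Further members have special roles. Mrpl58 encodes a peptidyl-tRNA hydrolase built into the large subunit that can release stalled chains. It had 9.64 ± 0.505 CPM before and 7.81 ± 0.290 CPM after IFN-β in shControl cells, a log2 fold change of -0.30 ± 0.080 with adjusted p = 0.0053, and in shPpargc1b cells the difference was -0.13 ± 0.080 with adjusted p = 0.22. Mrps12, a decoding-centre protein and the member with the lowest count in any single library, had 61 to 186 counts a library and log2 fold changes of -0.27 ± 0.19 with adjusted p = 0.25 and -0.25 ± 0.18 with adjusted p = 0.30, neither past the threshold at this depth. Mrps30 was lower by a small amount (-0.16 ± 0.062 with adjusted p = 0.047 in shControl and -0.26 ± 0.062 with adjusted p = 0.0027 in shPpargc1b cells). The call of Mrps30 in shControl cells was lost under 13 of 19 alternatives.

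Knockdown of Ppargc1b changed few of the genes. In unstimulated cells 4 of 77 were higher and 8 lower in shPpargc1b cells, against a background of 12.4% higher and 11.1% lower among all genes, and the median log2 fold change was -0.03 (all genes -0.0049). With IFN-β 5 were higher and 4 lower, against 11.5% and 12.7%, with a median of 0.03 (all genes -0.01). Libraries did not overlap for 8 higher and 12 lower genes in unstimulated cells (background 18.4% each way) and for 11 higher and 9 lower genes with IFN-β (background 18% higher and 20.7% lower). By subunit, 3 large and 1 small subunit genes were higher and 3 large and 5 small subunit genes lower in unstimulated cells, and with IFN-β the counts were 3 and 2 higher, 2 and 2 lower. Over all 77 genes the share of lower genes in unstimulated cells (10.4%) was about that of the background, and the other shares were below it, whereas 17.2% of the small subunit genes were lower in unstimulated cells. That share includes Mrps36, and with subunits placed by structure it was 4 of 26 (15.4%). Leaving out each library in turn gave 2 to 5 lower small subunit genes, so this share is not stable. Among the 45 genes without exon overlap 2 were higher and 7 lower (15.6%) in unstimulated cells, and 3 were higher and 4 lower with IFN-β. The counts moved with single libraries: without shControl replicate 3 the unstimulated comparison had 2 lower genes, without shPpargc1b replicate 2 it had 0 higher genes, and with IFN-β leaving out shControl replicate 1 or 3 or shPpargc1b replicate 1 left 2 higher genes.

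The same test called many nuclear genes of complex I, the first enzyme of the respiratory chain, whose mitochondrially made subunits the mitochondrial ribosome translates. Of 36 such genes 19 were lower in unstimulated shPpargc1b cells, with a median of -0.20. With IFN-β 12 were lower, with a median of -0.19. Both counts lie above the background share of lower genes, where those over all 77 genes of the mitochondrial ribosome do not. The difference between the lists was not tested. Ndufa5, an accessory subunit gene, had a log2 fold change of -0.55 ± 0.14 with adjusted p = 0.010 and Ndufb5, another accessory subunit gene, of -0.46 ± 0.057 with adjusted p = 2.74e-05 without IFN-β. Ndufb6, also accessory, had -0.38 ± 0.087 with adjusted p = 0.0048 and Ndufv1, which encodes a core subunit of the NADH-oxidising module, had -0.36 ± 0.077 with adjusted p = 0.0026 with IFN-β.

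**Figure D4:**
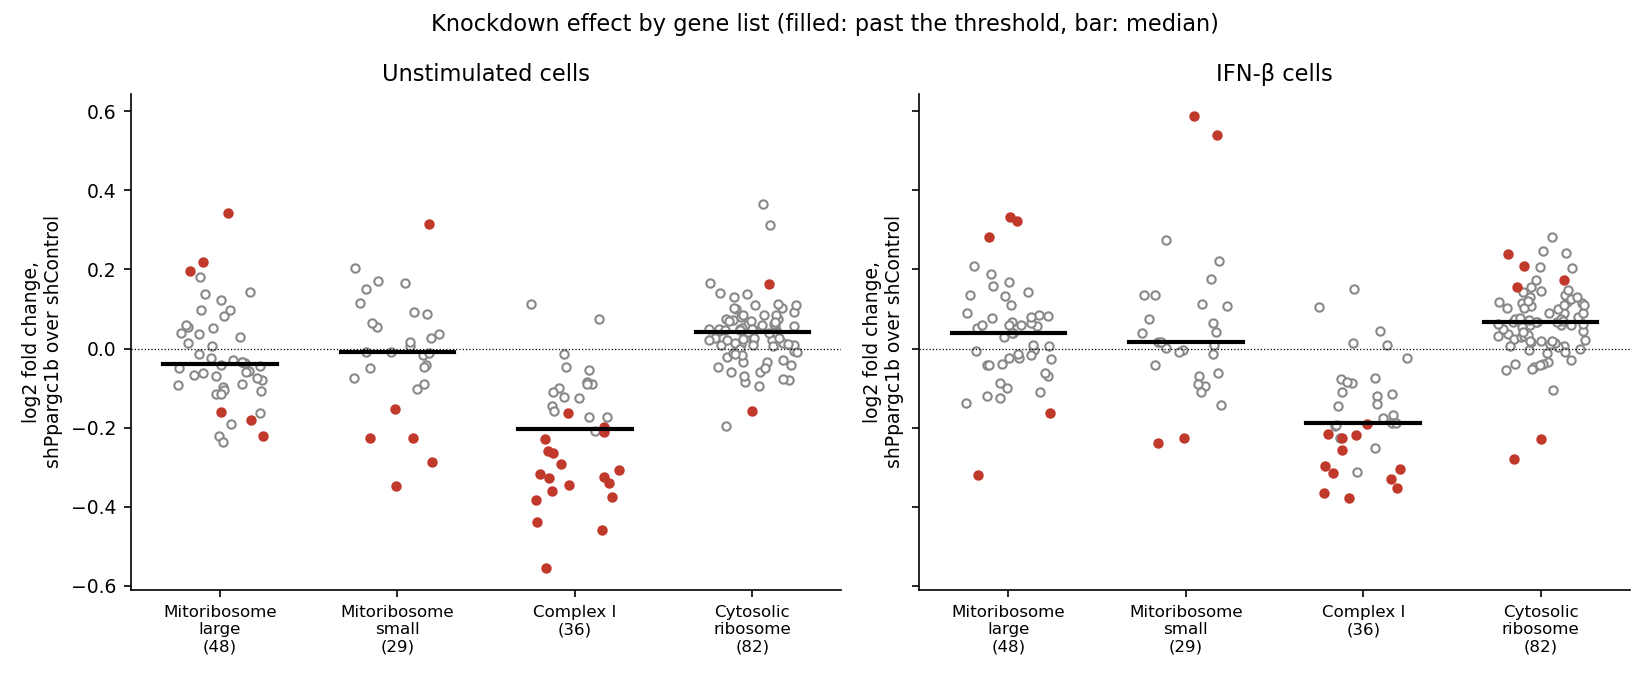
Log2 fold change of shPpargc1b over shControl (y axis) in unstimulated (left) and IFN-β-treated cells (right) for the large and small subunit genes, 36 complex I genes and 82 cytosolic ribosomal protein genes. Each point is a gene, filled where adjusted p is under 0.05, and bars are medians, which lie within 0.07 of 0 for all lists but complex I.

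The knockdown effects seen in both states were few. Mrps18b and Mrpl52 were higher in both, Mrps35 and Mrps15 were lower in both, and Mrpl39 passed in opposite directions. Mrps35, which encodes a small subunit protein found in mitochondria alone, had 20.1, 19.97 and 19.8 CPM in shControl and 15.9, 14.97 and 16.2 CPM in shPpargc1b cells without IFN-β, a log2 fold change of -0.35 ± 0.066 with adjusted p = 0.0012. With IFN-β it had 13.6, 14.3 and 12.4 CPM and 12.1, 11.4 and 10.96 CPM, a log2 fold change of -0.23 ± 0.069 with adjusted p = 0.025. The hairpin groups of Mrps35 did not overlap in either state, and its level was lower with IFN-β as well. Mrps15, the gene of the homologue of bacterial S15, had 15.9, 16.8 and 16.4 CPM in shControl and 12.7, 13.9 and 15.5 CPM in shPpargc1b cells without IFN-β, with log2 fold changes of -0.23 ± 0.072 with adjusted p = 0.033 without and -0.24 ± 0.073 with adjusted p = 0.026 with IFN-β. Mrpl52, a large subunit gene, had 13.02, 12.4 and 13.2 CPM in shControl and 14.8, 17.7 and 16.6 CPM in shPpargc1b cells, with log2 fold changes of 0.34 ± 0.094 with adjusted p = 0.015 and 0.32 ± 0.096 with adjusted p = 0.022. For Mrps18b the log2 fold changes of knockdown were 0.31 ± 0.092 with adjusted p = 0.021 and 0.54 ± 0.099 with adjusted p = 8.46e-04, so that this gene was lower with IFN-β and higher with knockdown. The falls of Mrps35 without IFN-β, and the differences of Mrps18b and Mrpl39 with IFN-β, stayed past the threshold under every alternative. The rest were lost under at least 1 alternative. Without shPpargc1b replicate 3 the unstimulated call of Mrpl39 had an adjusted p of 0.064, and without shPpargc1b replicate 2 those of Mrps18b and Mrpl52 had 0.13 and 0.076 (edgeR). In treated cells Mrpl52 lost its call under 4 of 19 alternatives, with an adjusted p of up to 0.12 without shControl replicate 2 (edgeR). Mrps15 lost its call under 7 of 19 alternatives in unstimulated and 4 of 19 in treated cells, and Mrps35 under 8 of 19 in treated cells. With all genes of at least 1 count the adjusted p in edgeR was 0.14 for Mrps15 in unstimulated cells and 0.12 for Mrps35 in treated cells, the highest of their alternatives.

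Other knockdown calls passed in a single state. In unstimulated cells Mrpl13 was higher by 0.22 ± 0.061 with adjusted p = 0.016, and Mrps9, a small subunit gene, was lower, with 25.5, 24.1 and 25.3 CPM in shControl and 21.5, 21.6 and 20.9 CPM in shPpargc1b cells (-0.23 ± 0.052 with adjusted p = 0.0046). Mrps36, the dehydrogenase component named as a ribosomal protein, had 7.94, 6.75 and 7.71 CPM and 6.07, 5.92 and 6.37 CPM, a log2 fold change of -0.29 ± 0.086 with adjusted p = 0.024. The highest member per length, Mrps21, was among the 8 lower genes, at -0.15 ± 0.052 with adjusted p = 0.045, and so were Mrpl34 (-0.22 ± 0.072 with adjusted p = 0.036), Mrpl51 (-0.18 ± 0.058 with adjusted p = 0.035) and Mrpl1 (-0.16 ± 0.051 with adjusted p = 0.033). All of these falls were under 0.3 on the log2 scale. With all genes of at least 1 count, Mrps35 was the only member still lower in unstimulated cells. The calls of Mrps21, Mrpl34, Mrpl51 and Mrpl1 were thus lost under at least 1 alternative. With IFN-β the largest rise was that of Mrps6, a homologue of bacterial S6, which went from 1.58, 1.42 and 1.43 CPM in shControl to 2.63, 1.87 and 2.16 CPM in shPpargc1b cells (0.59 ± 0.19 with adjusted p = 0.034) on 73 to 174 counts a library. Mrpl40 and Mrpl38, both large subunit genes, were higher by 0.33 ± 0.085 with adjusted p = 0.0091 and 0.28 ± 0.083 with adjusted p = 0.021, and Mrpl4, the homologue of bacterial L4, was lower (-0.16 ± 0.055 with adjusted p = 0.042), a call lost under 13 of 19 alternatives. The calls of Mrps36, Mrps6, Mrpl40, Mrpl13 and Mrps9 were lost under 6, 5, 2, 2 and 1 of 19 alternatives, and without shPpargc1b replicate 1 the adjusted p of Mrps6 was 0.15 and that of Mrpl40 0.062 (edgeR). Exons of Mrps6 share bases with those of same-strand genes (19.9% of its exon bases with Gm49711 and 10.4% with Slc5a3).

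Proteins of the mitochondrial ribosome that carry other names were read from a separate list of 5 genes. Knockdown changed 2 of these 5 genes, both higher and with IFN-β, against a background of 11.5% higher among all genes. They were Ptcd3, which encodes a pentatricopeptide-repeat protein of the small subunit, by 0.20 ± 0.068 with adjusted p = 0.042, and Gadd45gip1, which encodes a large subunit protein, by 0.27 ± 0.084 with adjusted p = 0.027. With IFN-β in shControl cells, where 24.6% of all genes were lower, both were lower (-0.62 ± 0.067 with adjusted p = 1.63e-06 for Ptcd3, -0.55 ± 0.083 with adjusted p = 4.37e-05 for Gadd45gip1). Dap3, the gene of a GTP-binding small subunit protein, had -0.05 ± 0.066 on the log2 scale and did not pass. Chchd1 passed as lower with IFN-β in shPpargc1b cells (-0.24 ± 0.076 with adjusted p = 0.020, beside -0.15 ± 0.076 with adjusted p = 0.11 in shControl), and Aurkaip1 passed in no comparison, at 0.09 ± 0.057 with adjusted p = 0.21 for IFN-β in shControl cells. The difference between hairpins did not pass for any of the 5.

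Genes that build and serve the mitochondrial ribosome also included many that were lower with IFN-β, against the same backgrounds. Of 27 genes for assembly and rRNA modification, 14 were lower in shControl (median -0.33) and 12 lower and 2 higher in shPpargc1b cells. Of 15 translation factors of mitochondria, 9 were lower and 1 higher, and 7 lower and 1 higher, in the same order. Cytosolic ribosomal proteins had 56 of 82 genes lower and 1 higher in shControl cells (median -0.22) and 48 lower and 1 higher in shPpargc1b cells. For mitochondrial DNA transcription and replication the counts were 5 lower and 2 higher of 10, then 4 lower and 2 higher. Of 7 mitochondrially encoded protein genes that could be tested of 13 listed, 5 were lower in shControl (median -0.52) and 2 in shPpargc1b cells.

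With knockdown the calls in these lists are to be read against the backgrounds above, 12.4% higher and 11.1% lower without IFN-β and 11.5% and 12.7% with it. Assembly genes had 1 higher and 2 lower of 27 without IFN-β: Trub2, a pseudouridine synthase, was higher by 0.31 ± 0.051 with adjusted p = 3.45e-04, and Mpv17l2 and Rbfa, a ribosome-binding factor, were lower (-0.37 ± 0.092 with adjusted p = 0.0084 and -0.30 ± 0.077 with adjusted p = 0.010). With IFN-β 3 were higher and 1 lower, led by the rRNA methyltransferase gene Mettl15 (0.73 ± 0.20 with adjusted p = 0.015) and Fastkd2 (0.32 ± 0.084 with adjusted p = 0.012), with Rbfa again lower (-0.30 ± 0.081 with adjusted p = 0.012). Of 15 translation factors 3 were lower without (20%, above the background) and 1 with IFN-β. Guf1, an elongation factor, was lower in both states (-0.32 ± 0.062 with adjusted p = 0.0015 and -0.23 ± 0.064 with adjusted p = 0.016), and Tufm, the mitochondrial elongation factor Tu, was lower without IFN-β (-0.24 ± 0.076 with adjusted p = 0.030). Of 10 genes of mitochondrial DNA transcription and replication only Tfam passed, and only with IFN-β (-0.23 ± 0.070 with adjusted p = 0.026). Cytosolic ribosomal proteins had 1 higher and 1 lower of 82 without and 4 higher and 2 lower with IFN-β, with medians of 0.04 and 0.07. Rps4x was lower in both states (-0.16 ± 0.053 with adjusted p = 0.042 and -0.23 ± 0.053 with adjusted p = 0.0053), and among those past the threshold the largest rise and fall with IFN-β were those of Rps27l (0.24 ± 0.056 with adjusted p = 0.0053) and Rpl30 (-0.28 ± 0.089 with adjusted p = 0.033). Of the mitochondrially encoded genes mt-Nd6 was lower in both states (-0.26 ± 0.066 with adjusted p = 0.0084 and -0.26 ± 0.066 with adjusted p = 0.0098). In IFN-β-treated cells 4 of the 7 (57.1%) were higher with knockdown, above the background, led by mt-Nd1 (0.29 ± 0.077 with adjusted p = 0.011) and mt-Nd2 (0.29 ± 0.076 with adjusted p = 0.011). The hairpin groups did not overlap for 1 of the 7 in that direction (background 18%).

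The promoter windows of the genes were read for short motifs, since members that moved together may share sequence near their starts. RefSeq windows (build GRCm38.p6, 250 bases before to 50 bases after each start) were found for 68 of the 77 genes. Exact matches on either strand were counted for the ETS/GABP core (CCGGAAG), the NRF1 core (GCGCATGC), the YY1 core (AAGATGG) and the oestrogen-related receptor element (AAGGTCA). The ETS/GABP core was found in 25 of 68 members (36.8%), against 9.93% of all genes and 13.0% of protein-coding genes in the table. The NRF1 core was found in 8 members (11.8%, against 3.05% and 3.94%), and the YY1 core in 13 (19.1%, against 7.28% and 7.18%). The oestrogen-related receptor element was found in 4 members (5.88%, against 5.38% and 4.74%). The ETS/GABP core was in 12.5% of the complex I genes with a window. For the same complex I genes the YY1 core was in 21.9%, and the NRF1 core and the oestrogen-related receptor element were each in 9.38%. None of these shares was tested, and a match is a string of letters and not a bound site.

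By response, the ETS/GABP core was in 2 of 8 members that rose with IFN-β in shControl cells, 11 of 37 that fell and 12 of 23 that did not pass. By subunit it was in 14 of 42 large and 11 of 26 small subunit genes, and the NRF1 core in 7 of 42 and 1 of 26. An interferon-stimulated response element core (GAAANNGAAA, chosen after the values were seen) was found in 3 members, Mrpl20, Mrps18c and Mrps21 (4.41%, against 3.99% of all genes), of which Mrps18c rose with IFN-β under both hairpins. Mrpl20 and Mrps21 passed under neither hairpin, with log2 fold changes of -0.17 and -0.06 in shControl cells. A gene on the opposite strand has an exon within the 250 bases before the start for 27 of the 68. Only 17 of the 68 had a window before the start that was free of annotated exons of any gene. An annotated exon of the gene itself lies in these bases for Mrpl39, Mrps18c, Mrpl27 and Mrps26, but not for Mrpl34, Mrps18b and Mrps27.

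Stretches of 30 bases around matches in genes named above are shown 5′ to 3′ on the strand of the gene, with the matched letters in capitals. They are given to let the shared letters be seen in genes that moved in opposite directions. The stretch of Mrpl39 and the interferon-stimulated response element stretch of Mrps18c lie inside the annotated spans of these genes. That of Mrps26 lies partly inside. Positions count from the RefSeq start, so a match before that start can lie within the annotated gene.
Mrpl39, chr16:84735350-84735379 (minus strand): aaggagaggcGCGCATGCGCccccgcgtgg
Mrps18b, chr17:35916644-35916673 (minus strand): acggcccgacGCATGCGCactgggagcacc
Mrpl27, chr11:94653726-94653755 (plus strand): tccgcaagacCCGGAAGtagatctatcccg
Mrps18c, chr5:100798593-100798622 (plus strand): ggtcacgtgaCTTCCGGcccgggaagcgcg
Mrps18c, chr5:100798728-100798757 (plus strand): ggcgcttaggGAAATAGAAAggaagaggaa
Mrps27, chr13:99344728-99344757 (plus strand): ggtaggaccaCTTCCGGcggaggcgggctc
Mrps26, chr2:130563727-130563756 (plus strand): tggtgctccgcggccaCTTCCGGgccgggc
Mrpl34, chr8:71464879-71464908 (plus strand): actacagctcCCGGAAGgccccgcggcaac
In Mrpl39 matches to the NRF1 core on both strands overlap, and Mrps18b carries the core on the reverse strand at position -223 from its start and again at position 29. Mrpl39 rose and Mrps18b fell with IFN-β. Mrpl27 and Mrps18c, which rose, and Mrps27, Mrps26 and Mrpl34, which fell, carry the ETS/GABP core between positions -156 and -14, so members with either core were found on both sides of the response.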

How the data were processed

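RNA-seq was done on 12 libraries (4 groups of 3) of total RNA made with ribosomal RNA depletion. Per the submitters' processing notes, the authors trimmed reads with Trim Galore 0.6.0 and aligned them with STAR 2.7.8a. The deposited values are raw counts per gene of uniquely mapped reads on GRCm38 with a GENCODE annotation, with no normalization. Gene names come from the same table. Positions and exon overlaps were taken from a GENCODE annotation of GRCm38, and promoter windows from RefSeq (GRCm38.p6).

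The 77 genes, the gene lists and the tests were chosen with earlier results of these data known. Named members were the 4 largest rises and 4 largest falls past the threshold in each comparison, the 3 highest and 3 lowest by RPKM, those next to the count limit and 9 fixed by role, and in other lists the 2 largest rises and falls with knockdown. Mrpl1, Mrpl51, Mrpl38 and the genes named beside other values were added after values were seen. Genes passing filterByExpr in edgeR 4.0.16 (R 4.3.3; minimum count 10, minimum total 15) were fitted with TMM factors in 1 model of all 12 libraries, and tested by quasi-likelihood with Benjamini-Hochberg adjustment over 18228 genes (threshold 0.05). Fold changes are log2 with standard errors, and CPM and RPKM use TMM-scaled totals. The fit was tested on simulated data. Depth was 49919648 to 77726101 counts a library, and the count of a gene sets its precision. Alternatives were library totals, RLE factors, DESeq2 1.42.0, limma-voom (limma 3.58.1), a filter of at least 1 count, only the groups compared, a replicate block, leaving out each library, and other definitions of the subunits. Promoters were searched for exact letters on both strands in Python 3.11.15.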

Additional observations from a re-analysis of the deposited data

Results flagged for a closer look

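The response of Mrpl39 to IFN-β differed between the hairpins in a test of the difference itself. The interaction was -0.52 on the log2 scale, with an adjusted p of 0.0062 in edgeR's quasi-likelihood test and between 3.22e-07 and 0.027 over its 18 alternatives. Mrpl39 rose in all 3 treated libraries under both hairpins, from 24.03, 24.03 and 25.04 to 48.99, 48.996 and 46.2 CPM in shControl and from 25.8, 28.8 and 29.1 to 37.96, 39.4 and 38.1 CPM in shPpargc1b cells. What the difference rests on was not tested. Groups of 3 libraries are too small for a check of single libraries that stand apart.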

How the results depend on the processing

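Scaling by library totals alone changed the extent of the IFN-β result most. In shControl cells 5 genes were then higher and 64 lower (37 large and 27 small subunit genes), with a median of -0.51, and in shPpargc1b cells 58 were lower (34 large, 24 small), with a median of -0.37. The signs of Mrpl10 (-0.13 in shControl, -0.12 in shPpargc1b) and Mrps18a (-0.18 in each) turned, and Mrps18a in shPpargc1b cells also turned to -0.0064 without shPpargc1b unstimulated replicate 1 (-0.0064 to 0.070 over the libraries left out). Summed CPM became 1212 and 1183 in unstimulated and 938 and 956 in treated shControl and shPpargc1b cells. With all genes of at least 1 count, 1 gene was lower with knockdown in each state and 7 were higher with IFN-β in shControl cells. With only the groups compared, 4 and 2 genes were lower with knockdown. The cause was not tested.

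The ratio of the subunits was 2.33, 2.37, 2.77 and 2.73 by structure (unstimulated shControl and shPpargc1b, then treated), 1.33, 1.32, 1.48 and 1.46 with equal weight for each gene, and 1.93, 1.94, 2.17 and 2.18 without Mrpl39, which was chosen after seeing the data. The order of treated above untreated held in each.

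Leaving out each library gave 0 to 5 higher and 2 to 8 lower genes with knockdown in unstimulated cells and 2 to 7 higher and 1 to 3 lower genes with IFN-β. The lowest of these came without shPpargc1b unstimulated replicate 2 (0 higher), shControl unstimulated replicate 3 (2 and 1 lower), and shControl treated replicate 1 or 3 or shPpargc1b treated replicate 1 (2 higher). With IFN-β in shControl cells the range was 6 to 11 higher (6 without shControl unstimulated replicate 2, 7 without replicate 3) and 36 to 42 lower, and in shPpargc1b cells 7 to 9 higher and 25 to 35 lower. The median interaction ran from 0.020 to 0.11. Of 39 named values past the threshold that were followed gene by gene, 25 stayed past it under every alternative. Other values named above, such as the knockdown calls of Mrps21, Mrpl34, Mrpl51, Mrpl1 and Mrpl38, were not among these 39.

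The labels give no replicate numbers, and the library codes fall in 3 runs with 1 library of each group. Each gene's group mean was subtracted from its log2 CPM, and these deviations were correlated between libraries of the groups compared, over all genes tested. For same-run libraries the correlations of deviations were 0.086 to 0.27 for knockdown without and 0.16 to 0.20 with IFN-β. They were 0.17 to 0.25 for IFN-β in shControl and 0.014 to 0.26 in shPpargc1b cells. The best match was in the same run for 2, 3, 3 and 2 of 3. With a replicate block by run, the higher and lower counts were 5 and 9, 5 and 4, 11 and 43, and 8 and 34 in the same order, and 0 and 1 for the interaction. Depth limits the least counted genes, Mrps12 and Mrps6.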
